A study of Homo sapiens with 8 samples.

Results

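The material described here is untreated K562, that is, the 4 libraries of the series whose labels give no Lip-1, out of 8 libraries in all. They were taken as a group from the labels alone (controls 1 to 4, genotype WT, Day 0, grown in RPMI medium with 10% fetal bovine serum), and no measured value chose them. The other 4 libraries come from K562 given Lip-1, a name in common use for the ferroptosis inhibitor liproxstatin-1, and enter no value below. The labels mention no vehicle for the controls and do not say whether the 4 libraries came from separate cultures, so the spread between them may be technical. RNA was total RNA freed of ribosomal RNA with capture probes and copied with random primers. The question asked of these libraries is descriptive, namely which genes untreated K562 expresses, at what level and with what spread, and which it lacks. No comparison of conditions was made and no p-value was computed.

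K562 is an established line grown from the blast crisis of a chronic myeloid leukaemia. It carries the BCR-ABL1 fusion kinase, which signals through adaptors and the STAT5 transcription factors, and it resembles an early erythroid precursor that makes embryonic and fetal rather than adult haemoglobin. Haemoglobin pairs alpha-like with beta-like globin chains around heme, and erythroid genes are switched on by the factor GATA1 together with TAL1, LMO2, LDB1 and KLF1. The line is also a standard target of natural killer cells because it shows little of the class I major histocompatibility proteins.

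Total counts were 141307169, 81230924, 79063246 and 91814646 in controls 1 to 4. Levels are given in CPM, the count of a gene divided by the total of its library and multiplied by 1000000, and every value written with ± is the mean and the SD over the 4 libraries (n = 4). An order of genes in CPM is an order of counts, to which longer transcripts contribute more. Levels per length are given as CPM per kb, which is CPM over the merged exon length. That length joins all annotated exons of a gene and can exceed the length of its transcripts, so ranks per kb are approximate. A level of 0 allows up to 3 counts, or 0.0212 to 0.0379 CPM depending on the library, for counting error alone. In these libraries 1460 entries held 4 counts and 208 held 1 count, a spacing unlike that of single reads, and what 1 count stands for at the low end is not known. Library pairs correlated at r = 0.989 to 0.997 across 15026 to 15946 genes (Pearson, log2 of CPM + 1, genes not independent), and none of the 4 repeated another, with a chi-square of the counts of 47.5 to 220.5 per degree of freedom if 1 count is taken as 1 read. The closest pairs were controls 2 and 3 (r = 0.997) and controls 1 and 4 (r = 0.995). Where these pairs differ in a gene, the SD over the 4 libraries reflects the gap between them.

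Control 1 stood apart from the other 3 libraries in a stretch of the short arm of chromosome 6 that holds the major histocompatibility genes. Among the 76 genes at 10 CPM or more from ZBED9 to ZBTB9 (positions 28570535 to 33457548, hg38), control 1 lay above the mean of the other 3 in 76, with a median log2 ratio of 1.02, and in 39 (51.3%) the log2 ratio was over 1. The same median was -0.49, -0.47 and -0.35 in controls 2, 3 and 4. Outside the stretch, the 374 such genes of chromosome 6 had a median of -0.05 in control 1, and over all 8777 genes at 10 CPM or more 116 (1.32%) had a log2 ratio over 1 in it. A short stretch of chromosome 19 from NDUFA3 to LENG8 (54102728 to 54462037) behaved likewise, with 7 of 7 genes above the others in control 1 and a median of 0.96. Both stretches were delimited after the values were seen, and what sets them apart was not tested. Whether all 4 libraries were aligned to the same set of reference sequences is not given in the sources used here, so levels in these stretches may not be comparable between libraries. Genes whose mean moved by over 1.5 times without control 1 are given with and without it.

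**Figure D1:**
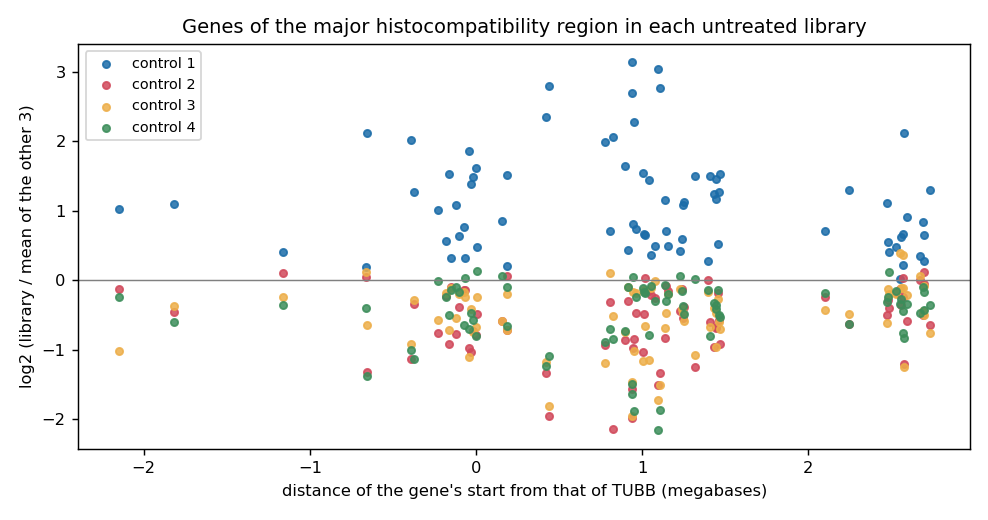
Each point is 1 gene at 10 CPM or more in the chromosome 6 stretch in 1 library, placed by the distance of its start from that of TUBB (x axis, megabases) and by the log2 ratio of its CPM to the mean of the other 3 libraries (y axis). All 76 points of control 1 lie above 0, while controls 2 to 4 lie mostly below it.

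Untreated K562 had 11189 of 19447 listed genes (57.5%) at a mean of 1 CPM or more, 5474 (28.1%) above 0 but under 1 CPM, and 2784 (14.3%) at 0 in all 4 libraries. Counts of list members at 1 CPM or more, given below, are to be read against that 57.5%. At the upper end 2464 genes reached 100 CPM and 89 reached 1000 CPM. The median over all genes was 4.83 CPM, and over the genes at 1 CPM or more it was 36.9 CPM. Counts were concentrated: the 10 leading genes held 5.09 ± 0.271% of all counts, the 100 leading genes 18.4 ± 0.652% and the 1000 leading genes 51.9 ± 1.06%. These shares depend on gene length, since longer transcripts yield more counts. The genes given as markers of untreated K562 were all present in each library: HBG2, HBG1 and HBZ ranked 10, 38 and 207 by mean CPM, KRT18 ranked 419 and GATA1 977.

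The highest mean CPM belonged to EEF1A1, the factor that carries aminoacyl-tRNA to the ribosome, with 18253, 16542, 19116 and 18289.7 CPM in controls 1 to 4. It alone held 1.81% of the counts, and its 4 values spanned a narrow range. HSP90AB1, the constitutive cytosolic HSP90 chaperone, came next with 4864, 6266, 6353 and 5459 CPM in controls 1 to 4. The HSP70-type chaperone HSPA8 (4110.1 ± 732 CPM), the elongation factor EEF2 (3787 ± 154 CPM) and the nucleolar protein NPM1 (3483 ± 605 CPM) completed the leading 5. HNRNPA1, TUBA1B, ENO1, GAPDH and HBG2 followed, from 3309.8 down to 3042 CPM, and HBG2, a fetal globin, was the only tissue-restricted gene among the leading 10. Of the next 20 genes (RPS2, ACTB, RPLP0, HSP90AA1, HNRNPA2B1, HMGA1, RPL13A, EEF1G, PABPC1, RPS18, RPL4, RPL3, YBX1, RPL7, RPSA, FTH1, NCL, ATP5F1B, RPL7A and RPL14), 10 encode ribosomal proteins and 1, FTH1, the heavy chain of ferritin.

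Per kb, the order began differently. HBG2 was highest with 3501 ± 812 CPM per kb and EEF1A1 was next with 3035 ± 182 CPM per kb, values that overlap within their SD. The rank of HBG2 rests on the exon lengths used and on how counts were divided between it and its near copy HBG1. The latter had 977 ± 218 CPM per kb at rank 11. The exon lengths used were 0.869 kb for HBG2 and 1.659 kb for HBG1, although the annotated transcript HBG1-201 has 779 bases. The ferritin light chain FTL had 1933 ± 213 CPM per kb and HSP90AB1 1925 ± 237 CPM per kb, again within each other's SD. RPS2, RPS18, YBX1, HMGA1, GAPDH and RPS12 filled the leading 10, from 1253 to 994 CPM per kb. HMGA1 is a chromatin protein abundant in embryonic and transformed cells, and YBX1 binds mRNA.

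**Figure D2:**
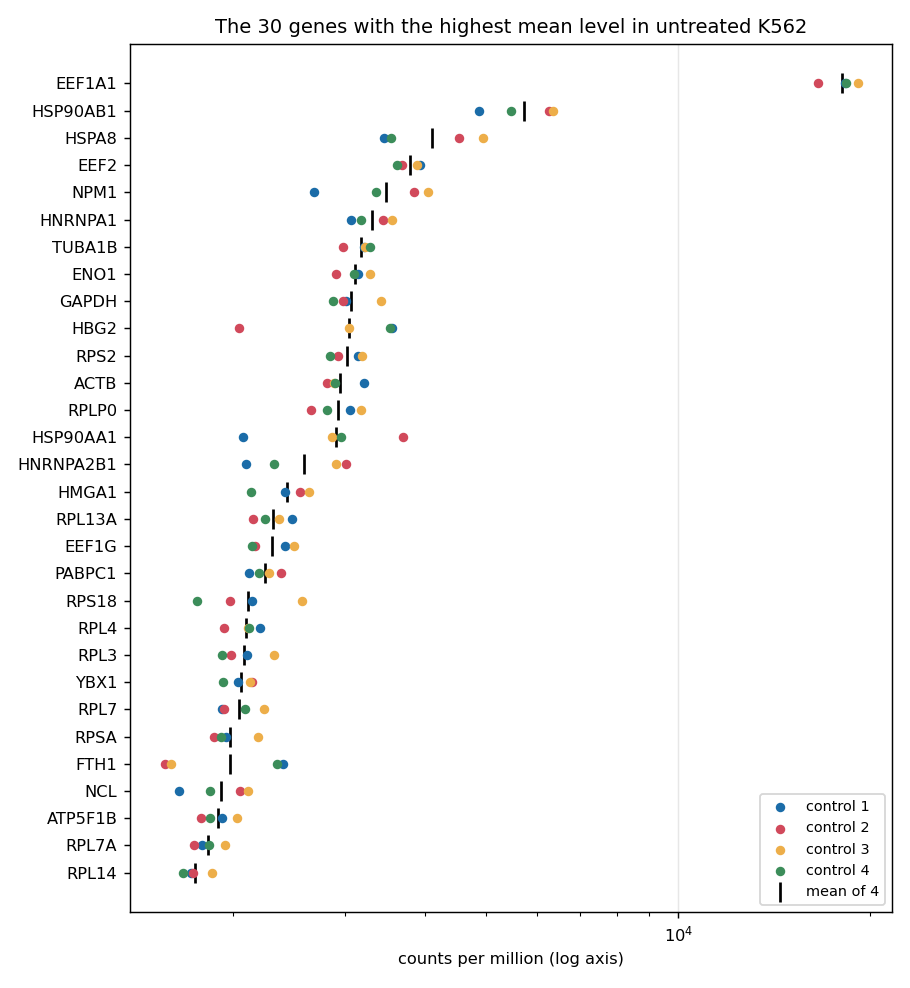
The 30 genes with the highest mean level are listed from top to bottom with their CPM in each of the 4 untreated libraries (x axis, log scale) and the mean as a bar. EEF1A1 lies apart at 16542 CPM or more in each library, and HBG2 and FTH1 show a wider spread than most of the ribosomal protein genes.

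Globin genes of the embryonic and fetal stages were expressed and the main adult beta gene, HBB, was nearly absent. All 10 globin genes together held 0.686 ± 0.214% of the counts. The fetal beta-like gene HBG2 had 3559.9, 2044, 3041 and 3523 CPM in controls 1 to 4. Its neighbour HBG1 had 1892, 1147, 1533 and 1913 CPM in controls 1 to 4. For both genes control 2 was lowest and controls 1 and 4 were highest. The 2 genes are near copies (the closest pair of their annotated transcripts has 306 identical bases and 1 mismatch), so the division of counts between them is uncertain and their sum, 4664 ± 1064 CPM, is safer. That sum was 96.9 ± 1.21% of the counts on beta-like genes.

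The embryonic beta-like gene HBE1 had 222, 96.97, 60.6 and 213 CPM in controls 1 to 4. Per kb it stood far below HBG2 (154 ± 84.96 CPM per kb against 3501 ± 812 CPM per kb) and below HBG1 (977 ± 218 CPM per kb). HBD, the minor adult gene, had 3.16 ± 1.04 CPM. HBB, the main adult gene, had 0.0283, 0.197, 0.101 and 0 CPM in controls 1 to 4, under 1 CPM in each library. If 1 count is taken as 1 read, HBB lay above the level that a count of 0 allows in controls 1, 2 and 3. What 1 count stands for at so low a level is not known, so this is uncertain. In control 4 HBB was at 0.

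Among alpha-like genes the embryonic zeta globin HBZ had 1115, 228, 319 and 834 CPM in controls 1 to 4. Controls 1 and 4 were far above controls 2 and 3, a CV (SD over mean) of 67.7%. HBA1 and HBA2, the alpha globins of fetal and adult life, had 749 ± 343 CPM and 657 ± 309 CPM and are near copies too (557 identical bases, 19 mismatches), and together they gave 1406 ± 650.0 CPM. Their values had the same order, with controls 1 and 4 above controls 2 and 3. HBQ1, the theta globin, had 15.3 ± 1.79 CPM, and HBM, the mu globin, 0.0132 ± 0.0154 CPM with 0 in 2 of the 4 libraries. Counts on alpha-like genes summed to 3167, 1007, 1264 and 2742 CPM and those on beta-like genes to 5678, 3291, 4637 and 5654 CPM in controls 1 to 4. In such bulk RNA, fewer globin-making cells and less globin RNA per cell cannot be told apart.

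**Figure D3:**
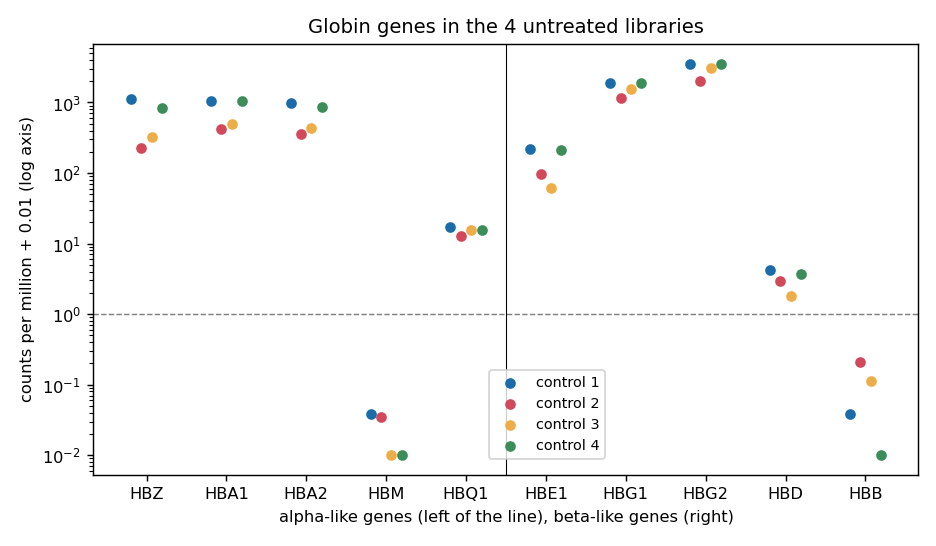
CPM + 0.01 (y axis, log scale) of the 10 globin genes in each untreated library, alpha-like genes to the left of the vertical line and beta-like genes to the right, with the dashed line at 1 CPM. HBG2 and HBG1 are highest, HBB and HBM lie at the bottom near 0, and in HBZ, HBA1, HBA2 and HBE1 controls 1 and 4 lie above controls 2 and 3.

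Of 25 listed regulators 23 were at 1 CPM or more, with a median of 105 CPM against 4.83 CPM for all genes. The list joins erythroid factors with NR2F2 and the fetal genes IGF2BP1, IGF2BP3, LIN28B and HMGA2. Its median is the value of IGF2BP3, an RNA-binding protein. GATA1, the master factor of the lineage, had 254, 185, 194 and 217 CPM in controls 1 to 4. The Krüppel-type factor KLF1, which drives adult beta globin in red cell precursors, had 169 ± 11.1 CPM. Per kb GATA1 (141.6 ± 20.5 CPM per kb) and KLF1 (105 ± 6.91 CPM per kb) were the highest of the list, followed by the bridging protein LDB1 (95.6 ± 20.8 CPM per kb). TAL1 had 63.6, 141, 64.8 and 65.7 CPM in controls 1 to 4 and GATA2, the stem and progenitor relative of GATA1, 134, 261, 125 and 115 CPM in controls 1 to 4, and in both control 2 alone was high. LMO2 was 77.7 CPM, with controls 2 and 3 above controls 1 and 4 (47.9, 109, 105 and 49.4 CPM in controls 1 to 4). NFE2, LYL1, CBFA2T3, IKZF1, NR2C2, KLF3, TRIM58, RUNX1, GFI1B, ZFPM1 and ZBTB7A ranged from 188 (NFE2) down to 53.5 CPM (ZBTB7A). MYB, which keeps progenitors dividing, had 264 ± 27.1 CPM.

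Regulators of the fetal to adult globin switch were uneven. BCL11A, the repressor that silences the fetal genes in adult cells, had 0.0195 CPM, with 0 in controls 2, 3 and 4. Its partner SOX6 was at 17.9 ± 3.33 CPM and the repressor ZBTB7A at 53.5 ± 14.6 CPM. The RNA-binding proteins of fetal cells were high: IGF2BP1 had 315, 441, 378 and 356 CPM in controls 1 to 4, IGF2BP3 105 ± 12.1 CPM and LIN28B 87.8 ± 13.7 CPM. NR2F2 was at 203 ± 29.3 CPM. HMGA2, another fetal gene, was under 1 CPM with 0.481 ± 0.812 CPM, and its mean rests on control 1 (1.698, 0.0492, 0.101 and 0.0762 CPM in controls 1 to 4).

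All 16 genes of heme synthesis and its transporters were at 1 CPM or more. The erythroid enzyme of the opening step, ALAS2, had 152, 15.9, 15.5 and 154 CPM in controls 1 to 4, so controls 1 and 4 were close to each other and far above controls 2 and 3. Its housekeeping counterpart ALAS1 had 35.7, 38.9, 41.1 and 36.7 CPM in controls 1 to 4, with no such spread. Of the later enzymes UROD had 408 ± 37.7 CPM, FECH, which inserts iron, 103 ± 2.59 CPM and CPOX 73.8 ± 5.98 CPM, while PPOX, ALAD and UROS lay between 30.4 and 18.7 CPM. Among the transporters SLC25A39 was highest with 219 ± 43.8 CPM, and the mitochondrial iron importer SLC25A37 had 89.1 ± 27.3 CPM. ABCB10, SLC25A38 and FLVCR1 ranged from 95.8 down to 28.4 CPM, and ABCG2 was lowest at 5.72 ± 4.05 CPM.

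GATA1 can bind the letters AGATAA, and 4 promoters of expressed genes that carry them are shown. Only these letters were searched for, so other sequences around GATA, such as the tgataa in KEL, are not marked. The promoters at hand did not include those of HBG1, HBG2, HBZ, HBA1 and HBA2. The 4 were chosen because the globin, heme and membrane genes with a promoter held this motif more often than other promoters. Of 36 such genes at 1 CPM or more with a promoter in RefSeq (GRCh38.p14, 250 bases before to 50 after the start), 11 (30.6%) contained AGATAA on either strand (TTATCT on the reverse strand). The share was 7.49% of all 15096 promoters and 4.68% of those of genes at 1 CPM or more. The 11 included GYPE with GYPB and RHD with RHCE, genes that share sequence, so the 11 are not all independent. The 150 bases before the start are printed 5′ to 3′ on the gene's strand, with capitals for AGATAA or TTATCT and for the TATA box (TATAAA or TTTATA) and the CCAAT box (CCAAT or ATTGG). SPTB (chr14:64879908-64880057, minus strand) encodes beta spectrin, ALAS2 (chrX:55030978-55031127, minus strand) the heme enzyme, CPOX (chr3:98593612-98593761, minus strand) a later heme enzyme and KEL (chr7:142962364-142962513, minus strand) the Kell blood group protein.
SPTB: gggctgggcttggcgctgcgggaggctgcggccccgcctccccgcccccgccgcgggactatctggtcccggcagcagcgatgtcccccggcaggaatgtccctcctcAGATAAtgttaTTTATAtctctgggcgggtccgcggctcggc
ALAS2: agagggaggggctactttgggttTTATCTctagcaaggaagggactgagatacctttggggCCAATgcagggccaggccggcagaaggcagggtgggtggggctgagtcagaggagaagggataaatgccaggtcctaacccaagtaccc
CPOX: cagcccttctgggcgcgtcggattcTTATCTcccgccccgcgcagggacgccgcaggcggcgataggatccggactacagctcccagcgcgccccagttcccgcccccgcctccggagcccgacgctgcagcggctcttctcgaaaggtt
KEL: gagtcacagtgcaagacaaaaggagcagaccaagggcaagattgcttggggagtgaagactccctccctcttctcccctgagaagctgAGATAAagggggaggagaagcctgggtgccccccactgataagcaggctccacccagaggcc
Counted back from the base just before the start (-1), the motif begins at -42 in SPTB, -127 in ALAS2, -125 in CPOX and -62 in KEL, on the printed strand in SPTB and KEL and on the other in ALAS2 and CPOX. SPTB also holds a reversed TATA box at -31 and ALAS2 a CCAAT box at -89. The 36 genes differed from all genes at 1 CPM or more in other features too. TATAAA, on either strand, was in 19.4% against 5.36%, and the median number of CpG dinucleotides was 18 against 27. Promoters of genes at 0 in all 4 libraries held AGATAA in 12.6%. A match of letters is a description of the sequence and does not show that a factor is bound. The expression of the 4 genes did not share a pattern over libraries: SPTB was even (169, 199, 188 and 177 CPM in controls 1 to 4), as were CPOX (70.8, 80.01, 77.4 and 66.96 CPM in controls 1 to 4) and KEL (75.9, 69.0, 72.7 and 56.7 CPM in controls 1 to 4), in contrast to the spread of ALAS2 given above.

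Red cell membrane genes were broadly present, 29 of 30 at 1 CPM or more with a median of 72.7 CPM. RHAG, the Rh-associated ammonium channel, had 593, 493, 502 and 617 CPM in controls 1 to 4 and was the highest of the list per kb (205 ± 23.4 CPM per kb), followed by basigin, BSG (123 ± 31.8 CPM per kb), and glycophorin C, GYPC (60.4 ± 9.79 CPM per kb). The membrane skeleton was represented by ANK1 (ankyrin, 532 ± 25.2 CPM), EPB41 (425 ± 43.2 CPM), ADD2 (194 ± 44.3 CPM) and SPTB (183 ± 12.8 CPM), with STOM, TMOD1 and DMTN between 99.2 and 24.7 CPM. EPB42, a late skeleton gene, was low at 2.34 ± 1.898 CPM. The glycophorins GYPE and GYPB had 70.02 ± 18.4 CPM and 24.5 ± 14.8 CPM, and sequence shared within the family makes the split uncertain.

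Genes of late red cell maturation covered a wide range of levels. Of 11 enzymes and chaperones 9 (81.8%) were at 1 CPM or more, against 57.5% of all genes. SLC4A1, the band 3 anion exchanger, had 54.3, 5.61, 4.39 and 55.8 CPM in controls 1 to 4, with controls 1 and 4 far above controls 2 and 3. Carbonic anhydrase 1, CA1, showed the same order (50.4, 7.66, 8.601 and 55.7 CPM in controls 1 to 4). AHSP, the alpha globin chaperone, had 1.47 ± 0.738 CPM, and ALOX15 and TSPO2 were under 1 CPM (0.00949 and 0.205). The antioxidant PRDX2 (275 ± 14.8 CPM), biliverdin reductase BLVRB (217 ± 50.1 CPM), the nuclear protein HEMGN (161 ± 6.82 CPM) and catalase, CAT (173 ± 53.2 CPM), were the leading members, and BNIP3L, BPGM and CA2 lay between 30.9 and 15.2 CPM. On the surface SLC2A1, CD59, ERMAP, CD47, XK, KEL and ICAM4 ranged from 195 down to 34.2 CPM. AQP1, SEMA7A, CD36, RHD, BCAM and RHCE ranged from 14.5 down to 3.24 CPM, and RHD and RHCE are near copies. ACKR1, the Duffy antigen, was under 1 CPM at 0.106.

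Of 21 genes of iron handling 15 (71.4%) were at 1 CPM or more, against 57.5% of all genes. The transferrin receptor TFRC had 648, 849, 794 and 750.5 CPM in controls 1 to 4, and the erythroid receptor TFR2 138 ± 29.2 CPM. Ferritin heavy chain FTH1 had 2397, 1563, 1598 and 2349 CPM in controls 1 to 4, and the light chain FTL 1697 ± 187 CPM. Controls 1 and 4 were the higher in FTH1. The iron chaperones PCBP1 and PCBP2 had 404 ± 11.98 CPM and 581 ± 16.4 CPM, the ferritinophagy receptor NCOA4 228 ± 25.5 CPM and the iron exporter SLC40A1 61.4 ± 8.98 CPM. STEAP2, STEAP4 and the mitochondrial ferritin FTMT were at 0 in all 4 libraries, and HAMP, HMOX1 and CP were above 0 but under 0.05 CPM.

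The 7 lineage and tissue lists outside the red cell had medians under the 4.83 CPM of all genes. Megakaryocyte and platelet genes had 16 of 25 (64%) at 1 CPM or more, against 57.5% of all genes, and a median of 1.97 CPM. The integrin ITGA2B had 6.46 ± 2.52 CPM and its partner ITGB3 1.29 ± 0.891 CPM, while the platelet tubulin TUBB1 reached 18.4 ± 7.99 CPM and MECOM 26.4 ± 5.19 CPM. PF4, SELP and TREML1 were at 0 in all libraries, and FLI1, GP5, GP9, CLEC1B, PPBP and SRGN were under 1 CPM. GP1BB was the exception with 408 ± 133 CPM. Its upstream neighbour SEPTIN5 had 763 ± 134 CPM, and how reads that run from 1 gene into the next were counted is not given in the sources used here.

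Granulocyte and monocyte genes had 7 of 29 at 1 CPM or more and a median of 0.0955 CPM. The granule genes MPO, ELANE, CTSG, LTF and S100A9 were at 0 in all 4 libraries, and AZU1, PRTN3, S100A8, DEFA4 and CAMP were under 1 CPM. Lysozyme, LYZ, was the exception with 122, 18.3, 17.5 and 124 CPM in controls 1 to 4, again high in controls 1 and 4. CD68 (29.1 ± 4.28 CPM), CEBPB (26.4 ± 5.68 CPM), CD33 (14.1 ± 2.13 CPM) and SPI1 (11.3 ± 3.61 CPM) were present, whereas CD14, CSF1R, CSF3R, ITGAX, FCER1G, FCGR1A, FCGR3A, TYROBP, MRC1, CEBPA, CEBPE and IRF8 were under 1 CPM. Of 10 mast cell and basophil genes GATA2, MITF (26.2 ± 1.401 CPM) and KIT (3.44 ± 0.508 CPM) passed 1 CPM, and the tryptases TPSAB1 and TPSB2, CPA3, HDC, HPGDS, MS4A2 and FCER1A did not.

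Lymphocyte genes were split by role. General leukocyte genes were present in 6 of 7 cases, with PTPRC (CD45) at 262, 189, 221 and 297 CPM in controls 1 to 4, LAPTM5 at 175 ± 49.01 CPM, RAC2 at 87.9 ± 12.5 CPM and CD53 at 53.5 ± 20.7 CPM. T and NK cell genes passed 1 CPM in 2 of 17 cases, CD3D (14.5 ± 1.596 CPM) and perforin, PRF1 (11.99 ± 5.87 CPM). None of the 8 B cell genes did. CD8A, CD8B, GZMB, MS4A1, EBF1 and PAX5 were at 0 in all 4 libraries. CD2, CD3E, CD3G, CD4, CD5, CD7, CD247, GNLY, IL7R, LCK, NKG7, ZAP70, CD22, CD48, CD79A, CD79B and JCHAIN were under 1 CPM. Of 14 stem and progenitor genes only MLLT3 (4.26 ± 1.69 CPM) and KIT passed 1 CPM, and CD34, ERG, SPINK2 and CRHBP were at 0. HLF, HMGA2, HOXA5, HOXA9, FLT3, THY1, AVP and PROM1 were under 1 CPM.

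**Figure D4:**
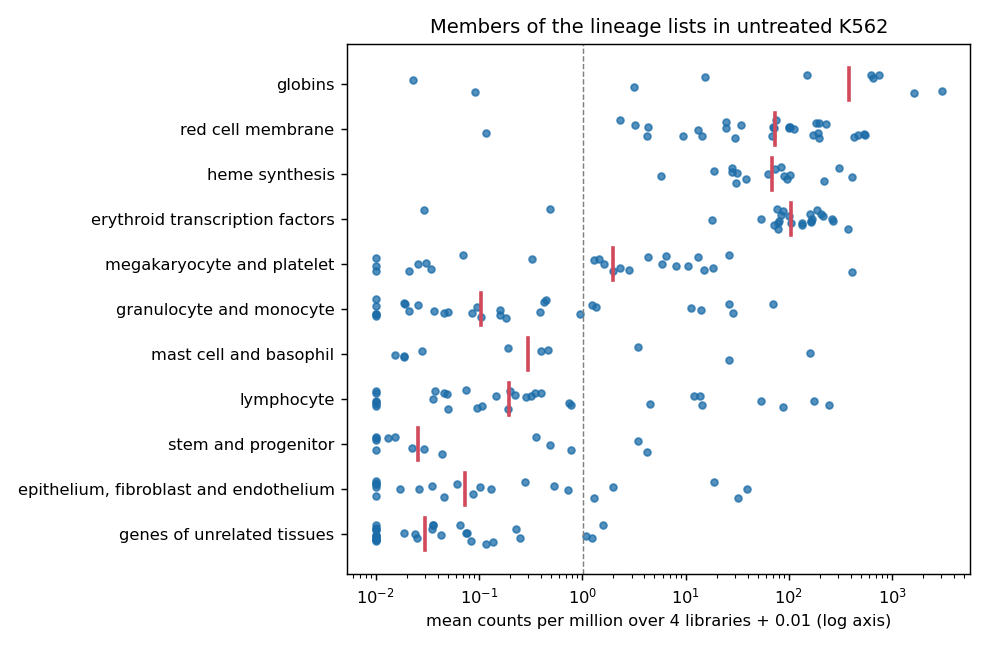
Each point is the mean CPM + 0.01 (x axis, log scale) of 1 gene over the 4 untreated libraries, with 1 row per marker list and a bar at the list's median. The 4 red cell lists lie mostly to the right of the dashed line at 1 CPM, the megakaryocyte and platelet list straddles it with 16 of 25 genes to the right, and the other 6 lists lie mostly to the left.

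K562 expressed the simple keratins that pair in glandular epithelium. KRT18 had 471, 277, 316 and 434 CPM in controls 1 to 4 and its partner KRT8 411, 195, 253 and 389 CPM in controls 1 to 4, both highest in control 1 and lowest in control 2. The gene models of the 2 overlap on opposite strands, so counts in the overlap may belong to either. KRT19 had 64.8 ± 21.5 CPM, and KRT7 and KRT20 were at 0 in all libraries. Of the keratins of stratified epithelium KRT10 had 50.1 ± 11.04 CPM, and KRT1, KRT4, KRT5, KRT13 and KRT14 were under 1 CPM. Vimentin, VIM, the filament of mesenchymal and blood cells, was the highest of the list per kb (135 ± 43.5 CPM per kb), ahead of KRT18 (116 ± 28.8 CPM per kb) within the spread. The nuclear lamins LMNB2, LMNB1 and LMNA had 399 ± 6.72 CPM, 398 ± 18.6 CPM and 382 ± 78.02 CPM, the neurofilament NEFH had 109 ± 20.1 CPM, DES 23.2 ± 6.35 CPM and NES 8.67 ± 4.44 CPM. NEFM and INA were at 0, and NEFL, GFAP and PRPH under 1 CPM.

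Other epithelial genes were mostly absent. EPCAM had 39.5 ± 12.2 CPM and MUC1 32.5 ± 16.6 CPM, but E-cadherin, CDH1, had 0.0359 CPM, CLDN3, CLDN4 and GRHL2 were under 1 CPM and ESRP1 was at 0. In all, 5 of 22 epithelial, fibroblast and endothelial genes passed 1 CPM, the others being CLDN7, FN1 and COL1A2. FN1 had 40.9, 2.73, 2.92 and 29.4 CPM in controls 1 to 4, high in controls 1 and 4, and 11.7 ± 15.3 CPM without control 1. COL1A1, COL3A1, DCN, POSTN, PDGFRB, CLDN5 and CDH5 were under 1 CPM, and LUM, TEK, KDR and EMCN were at 0. Of 30 genes of liver, muscle, nerve, pancreas, gut, kidney and lung, 3 passed 1 CPM, each barely: VIL1 (1.59 ± 0.545 CPM), SYT1 (1.24 ± 0.591 CPM) and FGB (1.07 ± 0.273 CPM, 0.988 CPM without control 3). A further 12 were at 0 in all libraries (among them TTR, MYH6, MYH7, MYOD1, NEUROD1, INS, GCG, CPA1, FABP2, SFTPC and SCGB1A1). The other 15, such as ALB, APOA1, CKM, MBP, PRSS1 and UMOD, were under 1 CPM.

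The classical class I genes HLA-B and HLA-C were nearly absent, while the common light chain was not. B2M had 333, 229, 258 and 302 CPM in controls 1 to 4. HLA-B had 0.7997, 0.0616, 0 and 0 CPM in controls 1 to 4 and HLA-C 3.93, 0.123, 0.101 and 0.294 CPM in controls 1 to 4. In both control 1 was highest, and without it the means were 0.0205 ± 0.0355 CPM and 0.173 ± 0.106 CPM. HLA-E, the ligand of the NKG2A receptor, had 28.5 ± 12.4 CPM and 22.7 ± 5.03 CPM without control 1. HLA-F was under 1 CPM and HLA-G was at 0. Thus 3 of 7 class I members passed 1 CPM, or 2 without control 1, since HLA-C was then under it.

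The loading machinery was partly expressed. The chaperones CALR (816 ± 24.2 CPM) and PDIA3 (344 ± 21.1 CPM) serve many proteins. TAP2 had 55.4 ± 15.6 CPM (47.8 ± 3.36 CPM without control 1), its partner TAP1 2.86 ± 1.44 CPM (2.29 ± 1.09 CPM without it), and tapasin, TAPBP, 26.3 ± 24.1 CPM (14.3 ± 2.001 CPM without it). ERAP1, PSMB10 and ERAP2 had 54.1, 29.1 and 2.21 CPM. The immunoproteasome genes PSMB8 and PSMB9 and the class I activator NLRC5 were under 1 CPM. Of 10 class II genes only the activator CIITA (3.61 ± 0.982 CPM) passed 1 CPM, with HLA-DMB and HLA-DQB1 at 0 and HLA-DRA, HLA-DRB1, HLA-DPA1, HLA-DPB1, HLA-DQA1, HLA-DMA and CD74 under 1 CPM.

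Ligands seen by natural killer cells, adhesion ligands included, passed 1 CPM in 9 of 13 cases (69.2%), against 57.5% of all genes. NCR3LG1 (B7-H6, seen by NKp30) had 68.4, 119, 94.8 and 97.8 CPM in controls 1 to 4. NECTIN2 and PVR, seen by DNAM-1, had 76.7 ± 23.2 CPM and 20.1 ± 4.9 CPM. ULBP2, an NKG2D ligand, had 30.6, 3.37, 3.47 and 30.5 CPM in controls 1 to 4, close in controls 1 and 4 and close in controls 2 and 3. MICB and MICA, which lie in the chromosome 6 stretch, had 11.3 ± 9.75 CPM and 4.85 ± 6.27 CPM, or 6.43 ± 0.635 CPM and 1.72 ± 0.515 CPM without control 1. The adhesion ligands CD58 and ICAM1 had 29.7 ± 1.02 CPM and 26.6 ± 7.89 CPM, ULBP1 had 3.15 ± 1.22 CPM, and ULBP3, RAET1E, RAET1G and RAET1L were under 1 CPM.

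Cancer-testis antigens, germline genes that tumours often express, passed 1 CPM in 16 of 42 cases (38.1%), against 57.5% of all genes. PRAME had 1408, 801, 897 and 906 CPM in controls 1 to 4, highest in control 1. MAGEA3, MAGEA6 and MAGEA12 had 218 ± 14.8 CPM, 172 ± 6.92 CPM and 108 ± 6.14 CPM, where MAGEA3 and MAGEA6 are 98.6% identical and their sum of 390.0 ± 21.5 CPM is safer. CTCFL (BORIS, the germline relative of CTCF) had 193 ± 14.1 CPM, MAGEC1 157 ± 7.46 CPM, MAGEA1 71.4 ± 7.75 CPM, MAGEC2 62.6 ± 6.92 CPM and SAGE1 61.1 ± 5.61 CPM. TEX15, GAGE12F, MAGEB2, TPTE, GAGE1, PAGE1 and DDX53 ranged from 27.03 down to 1.01 CPM, and near copies within the GAGE family make its split uncertain. DDX53 was under 1 CPM without control 2 or control 4. Under 1 CPM lay STK31, SSX1, CT45A1, GAGE12J, GAGE2A, SYCP3, MAGEA10, LUZP4, PAGE2, XAGE3, DAZL, TDRD1, SYCP1, BRDT and XAGE1B. The 11 members at 0 in all libraries were MAGEA4, SSX2, SSX4, CTAG1A, CTAG1B, CTAG2, CT47A1, XAGE1A, XAGE2, PAGE5 and DDX4. How reads that match more than 1 gene were counted is not given in the sources used here. For a member with a close copy, a 0 may therefore not mean absence.

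Of 46 genes of BCR-ABL1 and cytokine signalling 37 were at 1 CPM or more, with a median of 60.8 CPM. ABL1 had 269, 247, 242 and 261 CPM in controls 1 to 4 and BCR 129, 143, 128 and 143 CPM in controls 1 to 4, values in which reads of the fusion and of the normal transcripts cannot be told apart. The adaptors CRKL, a direct substrate of the kinase, and GRB2 had 623 ± 46.3 CPM and 180.3 ± 1.24 CPM. SOS1, CBL, GAB2, SHC1, ABL2, CRK, GAB1 and DOK1 ranged from 122 down to 21.5 CPM, and DOK2 was under 1 CPM.

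STAT5A had 801, 864, 913 and 719 CPM in controls 1 to 4 and its near relative STAT5B 217 ± 24.1 CPM. Of the STAT5 targets PIM1 had 874, 600.0, 620.1 and 832 CPM in controls 1 to 4 and PIM2 435, 201, 208 and 405 CPM in controls 1 to 4, and in both controls 1 and 4 were the higher. BCL2L1, SOCS2, CISH and ID1 had 214 ± 61.97 CPM, 205 ± 46.1 CPM, 87.4 ± 43.1 CPM and 73.5 ± 7.19 CPM, while OSM was under 1 CPM. TYK2, JAK1, STAT3, STAT6 and JAK2 ranged from 140.5 down to 46.7 CPM, and JAK3 was under 1 CPM. Of 17 receptors 11 (64.7%) passed 1 CPM, against 57.5% of all genes. TGFBR1 was highest (166 ± 14.8 CPM), and the others included IFNAR1, IGF1R, IL6ST, the erythropoietin receptor EPOR (24.8 ± 5.42 CPM), IFNAR2, IL2RG, IFNGR1, ACVR1B and KIT. TGFBR2, INSR, IL3RA, CSF2RB and CSF3R were under 1 CPM and CSF2RA was at 0.

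A stretch of the short arm of chromosome 9 was almost silent. From HACD4 to TUSC1 (positions 20999515 to 25678440, hg38, 4.68 Mb), 1 of 25 genes was at 1 CPM or more, 12 were at 0 in all libraries and the median was 0.00177 CPM. It holds the cell cycle inhibitors CDKN2A and CDKN2B, the metabolic gene MTAP and the type I interferon genes. CDKN2A had 0.113, 1.43, 1.59 and 1.11 CPM in controls 1 to 4 and CDKN2B 0.0283, 0.8002, 0.784 and 0.675 CPM in controls 1 to 4, in both of which control 1 was lowest. The mean of CDKN2A, 1.06 CPM, was under 1 CPM without control 2 (0.939 CPM) or control 3 (0.884 CPM). MTAP, which most cells express, had 0.0778, 0, 0 and 0 CPM in controls 1 to 4. KLHL9 had 0.0795 CPM, DMRTA1 and ELAVL2 were at 0, and of 16 interferon genes 8 were at 0 (IFNA2, IFNA5, IFNA6, IFNA14, IFNA16, IFNA17, IFNB1 and IFNW1) while IFNA1, IFNA4, IFNA7, IFNA8, IFNA10, IFNA13, IFNA21 and IFNE were above 0 but under 1 CPM. IFNK, which lies beyond the stretch between CAAP1 and C9orf72, had 0.04299 CPM.

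Most genes on either side were not silent. Between RRAGA and FOCAD, 8 of 9 genes were at 1 CPM or more with a median of 28.9 CPM, and between CAAP1 and C9orf72 5 of 9 were, with a median of 3.54 CPM. MLLT3 and FOCAD, next to the stretch, had 4.26 ± 1.69 CPM and 1.15 ± 0.303 CPM. Over the whole of chromosome 9, 453 of 754 genes (60.1%) were at 1 CPM or more. The bounds were set after the values were seen. RNA counts do not show whether a gene is present in the genome, and interferon genes are silent in most unstimulated cells.

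**Figure D5:**
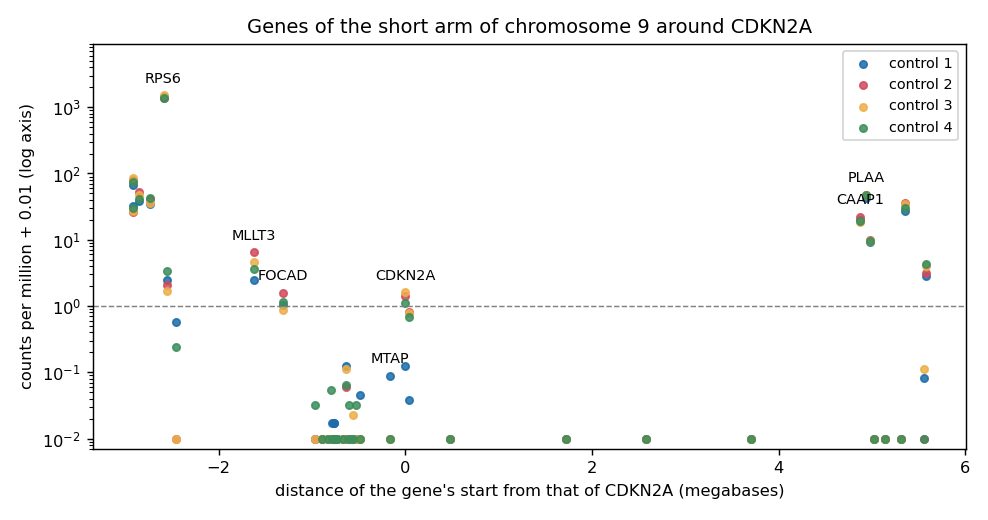
CPM + 0.01 (y axis, log scale) in each untreated library of the genes around CDKN2A, placed by the distance of their start from that of CDKN2A (x axis, megabases), with the dashed line at 1 CPM. Genes within the silent stretch lie at or near 0 apart from CDKN2A and CDKN2B, while 8 of 9 genes beyond it on the left and 5 of 9 on the right are at 1 CPM or more.

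Of 19 tumour suppressors and cell cycle brakes 17 (89.5%) passed 1 CPM, against 57.5% of all genes. The cyclin-dependent kinase inhibitor CDKN1A had 17.2, 5.05, 5.22 and 15.6 CPM in controls 1 to 4, higher in controls 1 and 4. NF1 (114 ± 16.8 CPM), MDM2 (107 ± 7.43 CPM), ATM (78.7 ± 14.2 CPM) and CDKN2C (75.2 ± 7.47 CPM) were the leading members. Per kb CDKN2C (22.7 ± 2.25 CPM per kb) was followed by CDKN1B (11.3 ± 1.04 CPM per kb) and RB1 (9.43 ± 0.622 CPM per kb). RBL2, RBL1, MDM4 and CHEK2 ranged from 57.7 down to 37.6 CPM, TP73, CDKN1C and CDKN2D from 12.6 down to 8.28 CPM, and TP63 was under 1 CPM with CDKN2B.

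The homeobox clusters, which record position along the body axis and stage in blood development, were used unequally. The share of all genes at 1 CPM or more was 57.5%. HOXB genes passed 1 CPM in 8 of 10 cases, led by HOXB9 (182, 168, 165 and 178 CPM in controls 1 to 4), HOXB4 (55.95 ± 5.44 CPM), HOXB2 (54.6 ± 9.44 CPM) and HOXB3 (35.6 ± 3.89 CPM). HOXC genes did so in 6 of 9 cases at lower levels, the highest being HOXC9 at 8.48 ± 1.72 CPM. HOXA genes did so in 2 of 11 cases, and HOXA9, a leukaemia gene in other contexts, had 0.00531 CPM. None of the 9 HOXD genes passed 1 CPM, and HOXD1, HOXD3, HOXD10 and HOXD11 were at 0, as were HOXA7 and HOXA13.

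Ribosomal protein genes made up 10 of the 30 leading genes. All 78 cytosolic ribosomal protein genes had a mean above 100 CPM, RPL21 only through control 1. Their median was 862 CPM, and they held 8.21 ± 0.361% of the counts. RPS2 (3024 ± 169 CPM) and RPLP0 (2925 ± 237 CPM) were highest in their subunits, and RPL21 had the lowest CPM of the 78, with 341, 32.2, 42.97 and 40.6 CPM in controls 1 to 4, where control 1 alone was high (38.6 ± 5.69 CPM without it). RPL41 (1037, 392, 389 and 371 CPM in controls 1 to 4) and RPS9 (755, 295, 258 and 275 CPM in controls 1 to 4), the latter in the chromosome 19 stretch, were also high in control 1 alone (384 ± 11.1 CPM and 276 ± 18.5 CPM without it). Translation factors were at 1 CPM or more in 20 of 20 cases, led per kb by EEF1A1, EEF2 and EEF1G. EIF3C (84.9, 85.04, 361 and 352 CPM in controls 1 to 4) and its copy EIF3CL (44.4, 433, 199 and 181 CPM in controls 1 to 4, with a mean of 214.4 CPM that was 141.5 CPM without control 2) share 3079 identical bases with 0 mismatches, so the division between them is arbitrary, and their sum was 129.4, 518, 559.7 and 533.5 CPM in controls 1 to 4.

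Chaperones passed 100 CPM in 27 of 27 cases, with HSPD1 (1392 ± 203 CPM), CCT5 (1231 ± 67.8 CPM), CANX (1229 ± 179 CPM) and CCT8 (1152 ± 90.7 CPM) next after the 3 named HSP90 and HSP70 genes (HSP90AA1, 2900.0 ± 664 CPM). The inducible HSPA1A had 369, 52.9, 46.3 and 34.9 CPM in controls 1 to 4 and its near copy HSPA1B 350.4, 58.7, 53.1 and 42.1 CPM in controls 1 to 4. Both lie in the chromosome 6 stretch, and without control 1 they had 44.7 ± 9.11 CPM and 51.3 ± 8.45 CPM. These genes thus passed 100 CPM only through control 1. Glycolytic genes passed 1 CPM in 25 of 31 cases (80.6%), against 57.5% of all genes. They were led per kb by GAPDH (3066 ± 237 CPM), ENO1 (3109.7 ± 158 CPM) and ALDOA (1532 ± 94.8 CPM), with LDHA at 1638 ± 400.2 CPM and LDHB at 1139.5 ± 104 CPM. The tissue-restricted PGK2, PGAM2, LDHC and SLC2A2 were at 0, and HK3 was under 1 CPM.

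Of 31 cytoskeletal genes 25 passed 1 CPM, led by TUBA1B (3177 ± 134 CPM), ACTB (2949.8 ± 178 CPM) and TUBB. TUBB, in the chromosome 6 stretch, had 3122, 1004, 1068 and 993 CPM in controls 1 to 4 and 1022 ± 40.6 CPM without control 1. The muscle actins ACTA1, ACTA2 and ACTG2 were under 1 CPM and ACTC1 was at 0. The other members under 1 CPM were TUBA3C and MYH14.

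Dividing-cell genes were present without exception, 46 of 46 at 1 CPM or more with a median of 197 CPM. TOP2A, the topoisomerase of mitotic chromosomes, had 502, 901, 857 and 602 CPM in controls 1 to 4, with controls 2 and 3 the higher. MCM7 (601 ± 34.9 CPM), MCM4 (539 ± 16.9 CPM), MKI67 (415 ± 84.01 CPM) and TPX2 (407 ± 75.5 CPM) followed. Per kb PCNA (169.5 ± 13.6 CPM per kb), the sliding clamp of replication, MCM7 (137 ± 7.96 CPM per kb) and CDC20 (127 ± 13.6 CPM per kb) were highest. CDK6 had 21.5, 247, 220.3 and 176 CPM in controls 1 to 4, where control 1 was lowest by far. UBE2C, a mitotic ubiquitin-conjugating enzyme, had the lowest CPM of the list, 1.26 ± 0.423 CPM.

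MYC had 257, 300.2, 298 and 252 CPM in controls 1 to 4, an even level, while MYCN had 0.0136 CPM and MYCL 4.19 ± 0.545 CPM. Its partner MAX had 84.2 ± 5.23 CPM. The 16 nucleolar factors were all above 100 CPM, led by NPM1, nucleolin, NCL (1914 ± 210.1 CPM), NOLC1 (559 ± 60.5 CPM) and fibrillarin, FBL (522 ± 47.2 CPM). MXD3, an antagonist of the family, had 43.3, 10.01, 8.66 and 11.3 CPM in controls 1 to 4, high in control 1 alone (9.99 ± 1.31 CPM without it).

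Anti-apoptotic genes passed 1 CPM in 7 of 9 cases (77.8%), pro-apoptotic genes in 8 of 11 (72.7%) and caspases with their activators in 11 of 11. Pyroptosis genes did so in 4 of 18 cases (22.2%), and the share over all genes was 57.5%. Among guards against apoptosis MCL1 had 266, 343, 338 and 113 CPM in controls 1 to 4, with control 4 the lowest, and BCL2L1 273, 149, 173 and 260.2 CPM in controls 1 to 4. CFLAR, BIRC2, XIAP, BCL2L2 and BCL2 ranged from 84.7 down to 15.4 CPM, and BIRC3 and BCL2A1 were under 1 CPM. Of 11 pro-apoptotic genes BID, BAX, BAK1, BCL2L11, PMAIP1, BAD, BBC3 and BOK ranged from 57.6 down to 5.97 CPM, and BMF, HRK and BIK were under 1 CPM. All 11 apoptotic caspases and their activators passed 1 CPM: cytochrome c, CYCS, had 693 ± 60.8 CPM, and CASP2 97.4 ± 11.2 CPM, and DIABLO, HTRA2, CASP6, APAF1, CASP9, CASP10 and CASP8 were at or under 79.9 CPM, with CASP8 at 15.1 CPM.

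Pyroptosis is lytic death in which inflammasome-activated caspases cut gasdermins. Of its 18 genes 4 passed 1 CPM: the sensor NLRP1 (49.6, 27.98, 25.7 and 40.5 CPM in controls 1 to 4), CASP4 (9.47 ± 6.01 CPM), NINJ1 (6.596 ± 2.55 CPM) and GSDMB (3.24 ± 0.925 CPM). The executioners GSDMD (0.644, 0, 0 and 0.163 CPM in controls 1 to 4) and GSDME (0.3397, 0.148, 0.468 and 0.392 CPM in controls 1 to 4) were under 1 CPM in every library, as was CASP1 (0.977, 0.332, 0.0885 and 0.621 CPM in controls 1 to 4). The adaptor PYCARD had counts in control 1 alone (0.0372 CPM on average), as did NLRP3 (0.00708 CPM). GSDMA, GSDMC, PJVK, CASP5, NLRC4, AIM2, MEFV, IL1B and IL18 were under 1 CPM too.

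Ferroptosis is death by iron-driven lipid peroxidation, held off by glutathione and quinone reducing systems. All 19 defence genes passed 1 CPM. GPX4, the lipid peroxide reductase, had 164, 137, 152 and 136 CPM in controls 1 to 4, the cystine importer SLC7A11 24.98, 23.8, 14.8 and 26.6 CPM in controls 1 to 4 with its partner SLC3A2 at 279 ± 21.1 CPM, and the alternative suppressors AIFM2 and DHODH 42.9 ± 3.59 CPM and 31.7 ± 2.18 CPM. The peroxiredoxins PRDX1 (867 ± 99.5 CPM), PRDX6 (499.9 ± 17.4 CPM) and PRDX3 (216 ± 19.9 CPM) and the thioredoxin pair TXNRD1 (289 ± 49.96 CPM) and TXN (235 ± 10.9 CPM) were the leading members. SQSTM1, KEAP1, NFE2L2, GSR, NQO1, GSS, GCLM, GCLC and GCH1 ranged from 159.8 down to 9.06 CPM.

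Of 13 genes that favour ferroptosis 10 passed 1 CPM. ACSL4 and LPCAT3, which load membranes with oxidisable lipids, had 47.97 ± 5.51 CPM and 32.7 ± 4.34 CPM. TFRC and NCOA4 were given above, VDAC2, VDAC3, POR, CYB5R1 and SAT1 ranged from 261 down to 11.04 CPM, and ALOX12 had 3.26 ± 1.86 CPM. The lipoxygenases ALOX5, ALOX15 and ALOX15B were under 1 CPM.

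Innate sensing genes passed 1 CPM in 7 of 15 cases (46.7%) and interferon-stimulated genes in 8 of 18 (44.4%), against 57.5% of all genes. STING1 had 104, 66.2, 62.3 and 98.2 CPM in controls 1 to 4, whereas CGAS, the enzyme that makes its ligand, had 0.425, 0.0616, 0.202 and 0.131 CPM in controls 1 to 4. MAVS had 112 ± 3.94 CPM, and its RNA sensors IFIH1 and DDX58 2.96 ± 1.54 CPM and 2.56 ± 1.12 CPM. TLR6 and TLR5 had 4.66 ± 0.615 CPM and 1.02 ± 0.429 CPM (under 1 CPM without control 1 or control 4), and TLR1, TLR2, TLR3, TLR4, TLR7, TLR8 and TLR9 were under 1 CPM. STAT2 had 54.7 ± 12.96 CPM. Of the antiviral effectors ISG15 had 7.54 ± 2.65 CPM and OAS3 5.83 ± 4.74 CPM, while IFIT1, IFIT2, IFI27, IFI44, IFI44L, OAS1, OAS2, OASL and MX1 were under 1 CPM and MX2 was at 0.

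The spread between the libraries was small for most genes. Over the 8777 genes at 10 CPM or more the median CV was 10.1%, with 7423 (84.6%) under 20% and 186 over 50%. Among genes at 100 CPM or more the splicing factor HNRNPM was the most even (791, 797, 790.0 and 786 CPM in controls 1 to 4), followed by GRB2 (181, 179, 179.6 and 182 CPM in controls 1 to 4), CIZ1, NUP188, IPO9, RPL27, RPLP2, FLNA, YTHDC1 and MRPS30, all with a CV from 0.571% to 1.24%. The 10 least even genes included RPL21, HSPA1A, HSPA1B, EIF3CL, C19orf48, EIF3C, PRRC2A, TUBB and DDX6, with a CV from 132.5% down to 67.8%. HSPA1A, HSPA1B, PRRC2A and TUBB lie in the chromosome 6 stretch, and PRRC2A had 650.1, 199, 212 and 213 CPM in controls 1 to 4 (208 ± 7.96 CPM without control 1). C19orf48 had 80.8, 55.3, 213 and 58.6 CPM in controls 1 to 4, where control 3 alone was high (64.9 CPM on average without it), and DDX6 48.4, 101, 61.1 and 203 CPM in controls 1 to 4, where control 4 was.

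Promoters were described by features that the ranking did not use. Among 15096 RefSeq promoters the median number of CpG dinucleotides was 27 for genes at 1 CPM or more and 5 for the 2011 at 0 in all libraries, with a GC content of 65.3% and 53.3%. The TATAAA letters, on either strand, were in 5.36% of the former, 20.5% of the latter and 9.2% of the 500 genes with the highest mean CPM. CCAAT showed no such gap (37.5%, 37.8% and 41.6%). AGATAA was in 4.68%, 12.6% and 3%. These shares describe sequence only, and the part of GC content in them was not tested. By chromosome, the share of genes at 1 CPM or more ran from 45.1% (chromosome 21, 101 of 224) and 46.7% (X, 390 of 835) to 66.04% (22, 282 of 427) and 67.5% (16, 550 of 815).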

How the data were processed

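RNA sequencing of 8 K562 libraries gave 1 table of whole-number counts per gene symbol and library, which the authors deposited without normalization. The submitters' processing notes name the build hg38 and, as tools, HISAT2 and StringTie, then bcl2fastq 2.0, limma and DESeq2; their roles and order, the annotation and the use of strand are not given in the sources used here. The 4 control columns were matched to samples by library name, and 0 columns lacked a sample. The totals exclude 9 lines that name no gene.

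CPM, the SD and CV over libraries and ranks were computed with Python 3.11.15 (pandas 2.3.3, numpy 2.4.6). Exon lengths and positions came from GENCODE release 29 (19291 of 19447 symbols matched, 19160 genes protein coding) and promoters from RefSeq (15096 matched). Transcript copies were aligned with Biopython 1.88. Log2 ratios of 1 library to the mean of the other 3 used CPM + 0.1. Alternatives used TMM (trimmed mean of M values) and relative log expression factors from edgeR 4.0.16 in R 4.3.3; the TMM factors were 1.03, 0.992, 0.959 and 1.02 in controls 1 to 4. The code for levels and their spread was tested on simulated data. Precision beyond counting error rests on 4 libraries.

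No contrast between groups was made and no p-value was computed. The 30 lists and the rule for named genes were chosen with earlier results of these data known. The rule names the 30 genes with the highest mean CPM, the 10 with the highest CPM per kb, the 10 with the highest and the 10 with the lowest CV at 100 CPM or more, the 3 highest members per kb of each list and those at 0 or under 1 CPM, and all members of 10 lists (globins, erythroid transcription factors, heme synthesis, red cell membrane, intermediate filaments, antigen presentation, the 9p21 and interferon cluster, BCR-ABL1 and cytokine signalling, cell death, ferroptosis and antioxidant). Gene families in the closing section and the stretches on chromosomes 6, 9 and 19 were chosen after the values were seen, as was SEPTIN5. Some genes that the rule names are counted in their lists but not reported here.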

Additional observations from a re-analysis of the deposited data

Results flagged for a closer look

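Each gene whose level the text gives was screened for a library that stood apart, meaning that its gap to the nearest of the other 3, as a share of the range over all 4, passed Dixon's critical value. Of 290 genes 33 (11.4%) had such a library, and in 21 of them it was control 1. Chance flags about 1 in 20 groups of 4 values drawn from a normal distribution, but that rate does not apply to this selection. The selection includes genes chosen for their spread or lying in the chromosome 6 stretch. In 7 genes the other 3 libraries were at 0, where the criterion is passed whatever the count.

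In the chromosome 6 stretch control 1 stood high in TUBB at 3122 CPM (the others 993 to 1068), PRRC2A at 650.1 CPM (the others 199 to 213), HSPA1A at 369 CPM (the others 34.9 to 52.9), HSPA1B at 350.4 CPM (the others 42.1 to 58.7), TAPBP at 62.3 CPM (the others 12.95 to 16.6), MICB at 25.9 CPM (the others 5.704 to 6.89), MICA at 14.2 CPM (the others 1.14 to 2.102), HLA-C at 3.93 CPM (the others 0.101 to 0.294) and HLA-B at 0.7997 CPM (the others 0 to 0.0616). Elsewhere it stood high in RPL41 at 1037 CPM (the others 371 to 392), RPS9 at 755 CPM (the others 258 to 295), RPL21 at 341 CPM (the others 32.2 to 42.97), VDAC2 at 284 CPM (the others about 253), MXD3 at 43.3 CPM (the others 8.66 to 11.3) and HMGA2 at 1.698 CPM (the others 0.0492 to 0.101), and it stood low in CDKN2B at 0.0283 CPM (the others 0.675 to 0.8002). It was the only library above 0 for BCL11A at 0.0778 CPM, HOXA9 at 0.0212 CPM, MTAP at 0.0778 CPM, NLRP3 at 0.0283 CPM and PYCARD at 0.149 CPM.

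Control 2 stood high in GATA2 at 261 CPM (the others 115 to 134), MCM4 at 565 CPM (the others 528 to 533) and TAL1 at 141 CPM (the others 63.6 to 65.7) and stood low in DOK1 at 17.5 CPM (the others 22.3 to 23.2). Control 3 stood high in BID at 67.02 CPM (the others 53.6 to 55.5) and C19orf48 at 213 CPM (the others 55.3 to 80.8). Control 4 stood high in JAK2 at 51.1 CPM (the others 44.95 to 45.5) and stood low in KCNH2 at 724 CPM (the others 809 to 824), KLF1 at 153 CPM (the others 173 to 176) and LDB1 at 179.9 CPM (the others 291 to 301). A single library was above 0 for ALOX15 at 0.0379 CPM in control 3 and MYCN at 0.0545 CPM in control 4. What set these libraries apart was not tested.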

How the results depend on the processing

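The number of genes at 1 CPM or more, 11189, was 11179 and 11177 with TMM and relative log expression scaling, 11139 by the median, 10634 when every library had to reach 1 CPM, 11743 and 9687 with limits of 0.5 and 5 CPM, and 11066 to 11252 with 1 library left out. Genes at 0 numbered 2923 to 3449 with 1 library left out and 5146 when fewer than 10 counts in every library sufficed. The 30 leading genes kept 29 or 30 members under every scaling, by the median and without any 1 library, but shared 19 with the 30 ranked per kb, by which the leading 10 and 100 genes held 6.86% and 25.4% of the summed level. The median CV was 8.4% to 10.3% with 1 library left out. List counts stayed within 1.5 times in 263 of 270 checks, and the 7 exceptions all came from the limit of 5 CPM. Without control 1 some means moved by over 1.5 times (CPM): FN1 18.97 to 11.7, HLA-C 1.11 to 0.173, HSPA1A 126 to 44.7, HSPA1B 126 to 51.3, MICA 4.85 to 1.72, MICB 11.3 to 6.43, MXD3 18.3 to 9.99, PRRC2A 318 to 208, RPL21 114 to 38.6, TAPBP 26.3 to 14.3, TUBB 1547 to 1022. Without control 2, EIF3CL 214 to 141, and without control 3, C19orf48 102 to 64.9. CDKN2A, DDX53, FGB, HLA-C and TLR5 lay so near 1 CPM that leaving out a library took them under it. No paired analysis was possible because only 1 condition was described, which leaves no contrast to pair. If 1 count is taken as 1 read, levels under 0.0379 CPM are within the 3 counts that a value of 0 allows in at least 1 library. What 1 count stands for is not known, so levels somewhat above this may be no different from 0.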

Other observations

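Whole gene families stood at either end of the scale. The families here were picked after their values were seen, so their counts are descriptions. Of 402 olfactory receptor genes 11 were at 1 CPM or more and 215 were at 0 in all 4 libraries. Of the 15 within 200 kb of the start of HBG2, 6 were at 1 CPM or more, and of the 387 elsewhere 5 were. OR51B5 was highest with 51.5, 85.1, 79.4 and 61.9 CPM in controls 1 to 4, followed by OR51I1 (13.9 ± 5.44 CPM), OR51B4 (10.8 ± 1.45 CPM) and OR52D1 (9.85 ± 1.98 CPM). The annotated HBG2 gene model runs from position 5253190 to 5505605 of chromosome 11 (hg38) and contains 7 of the 11, so counts of the globin and receptor models may be shared there.

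None of 93 keratin-associated protein genes and none of 39 beta-defensin genes was at 1 CPM or more, with 58 and 35 at 0 in all libraries. Of 66 protocadherins 2 were, PCDH10 (6.47 ± 1.21 CPM) and PCDH9 (4.03 ± 1.49 CPM). By contrast 78 of 78 mitochondrial ribosomal protein genes, 18 of 18 cytosolic tRNA synthetase genes and 36 of 40 proteasome subunit genes were at 1 CPM or more, with medians of 77.5, 277 and 223 CPM. Among 101 potassium channel genes, 22 of them at 1 CPM or more, KCNH2, the hERG channel of the heart, stood out with 823, 809, 824 and 724 CPM in controls 1 to 4. DLK1, a Notch-family ligand of fetal tissues, had 492, 141, 141.5 and 415 CPM in controls 1 to 4, with controls 1 and 4 far above controls 2 and 3.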
